A study of Mus musculus with 8 samples.

Results

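The 5hmC landscape of mouse embryonic stem cells (ESCs) was compared with that of adult liver over genes, using the 2 GLIB-Seq libraries labelled 5hmC ESC and 5hmC Liver, out of 6 5hmC libraries and 8 samples in the series. These libraries were chosen because their peak lists end at the same lowest score, 80, and all their nuclear peaks were used. Each protein-coding gene was described by the percentage of its span, and of the 2000 bp around its transcription start site (TSS ± 1 kb, here the promoter), that lay under peaks. There were 22367 such genes among the 37273 annotated nuclear genes of GENCODE M1 on mm9. The ESC library came from untransfected cells of the E14 line, grown with leukemia inhibitory factor, and the liver library from C57BL/6 mice at 8 weeks of age. The labels give no genetic change for either sample. The liver is whole tissue, with no sort of its cells, and the number of mice behind it is not given in the sources used here. A further E14 library, transfected with a control hairpin (shGFP), is given beside single genes with its peaks of a score of at least 80. Each cell type has 1 library, so that no difference was tested and no spread between replicates can be given. Cell type, culture and source of the cells differ between the libraries together and cannot be told apart, and the sequencing depth of each is unknown.

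5-Hydroxymethylcytosine is made from 5-methylcytosine by the Tet dioxygenases, and it is both a step on the way to unmodified cytosine and a lasting mark in cells that divide little. It lies mostly at CpG dinucleotides, in gene bodies and at regulatory elements, and is scarce at the CpG islands of active promoters. In GLIB-Seq a glucose is added to the modified base, the sugar is oxidised with periodate and biotin is coupled to it, so that the fragments that carry 5hmC can be pulled down and sequenced. A peak is thus a stretch of the genome where pulled-down fragments gathered. Its width says how far they extended, and not how much of the cytosine was modified.

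The lists held 171865 nuclear peaks in ESCs and 130408 in liver, with a median width of 844 and 1016 bp. They covered 179 and 170 Mb. The shGFP list held 74496 nuclear peaks of a score of at least 80, which covered 82.3 Mb, so that its percentages are not comparable in level with those of the longer lists. Read counts are not part of these lists. The marker genes of the labelled cells were not a check of identity here, as a marker can carry 5hmC in its span or none. Of 10 hepatocyte markers, 5 had a peak in the span in ESCs and 5 in liver. Alb, Ttr and Serpina1a had none in either, whereas Apob was covered over 2.69% in ESCs and 42.2% in liver. Cps1 (0 and 24.9%) and Hnf4a (30.5 and 55.7%) also differed by at least 10 points towards liver. Apoa1 (81.8 and 0%) and Tat (37.8 and 0%) did so towards ESCs. With every peak cut to 500 bp around its midpoint, the Hnf4a difference turned to 2.80 points in favour of ESCs. Of 10 ESC markers, 3 had a peak in ESCs and 3 in liver, and Pou5f1, Sox2, Zfp42, Dppa5a, Utf1 and Fgf4 had none in either. Nanog was covered over 29.6% in ESCs and 0% in liver, and Esrrb over 32.2 and 5.05%, whereas Klf4 gave 0 and 12.7%. All 5 fibroblast markers, chosen for possible feeder cells, were at 0% in liver, and 3 had a peak in ESCs. In liver, 1 of 5 Kupffer cell markers and 4 of 5 sinusoidal endothelial markers had a peak. So did 1 of 5 stellate cell and 2 of 5 bile duct markers. In ESCs these counts were 2, 4, 4 and 4, in the same order. In bulk tissue, fewer cells of a type and less 5hmC per cell cannot be told apart.

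Examples of DNA under a peak in one library and not in the other are given by 6 intronic stretches. They are the middle 150 bases of peaks that touched no annotated exon and no peak of the other library, in the 3 genes of each direction with the largest difference that held such a peak. Sequences are from the plus strand of mm9, 5′ to 3′, and CG dinucleotides are in capitals. A stretch of 150 bases does not show which bases of its peak were modified. The ESC stretches held 4, 6 and 3 CG dinucleotides, respectively, and came from peaks with scores of 1812, 733 and 86.9.
Jag2, chr12:114164717-114164866: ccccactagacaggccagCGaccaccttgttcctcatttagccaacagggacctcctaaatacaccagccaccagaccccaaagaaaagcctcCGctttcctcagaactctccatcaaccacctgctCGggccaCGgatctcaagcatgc
1700039E15Rik, chr7:52539952-52540101: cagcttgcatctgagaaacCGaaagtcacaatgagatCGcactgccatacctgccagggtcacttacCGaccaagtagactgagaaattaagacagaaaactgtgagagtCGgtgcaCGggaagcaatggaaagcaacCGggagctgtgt
Ly6g6f, chr17:35219011-35219160: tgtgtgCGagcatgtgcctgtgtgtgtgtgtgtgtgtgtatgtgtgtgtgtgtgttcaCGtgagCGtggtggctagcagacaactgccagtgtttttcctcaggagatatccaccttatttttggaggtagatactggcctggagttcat
The liver stretches held 0, 2 and 2.
Irgm2, chr11:58031959-58032108: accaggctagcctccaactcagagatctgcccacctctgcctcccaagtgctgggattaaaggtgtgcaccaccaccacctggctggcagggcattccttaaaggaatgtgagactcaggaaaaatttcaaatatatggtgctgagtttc
H47, chr7:73226555-73226704: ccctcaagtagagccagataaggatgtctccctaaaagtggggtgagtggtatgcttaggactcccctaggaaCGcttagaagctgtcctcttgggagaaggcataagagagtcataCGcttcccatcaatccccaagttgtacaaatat
Ugt1a1, chr1:90110145-90110294: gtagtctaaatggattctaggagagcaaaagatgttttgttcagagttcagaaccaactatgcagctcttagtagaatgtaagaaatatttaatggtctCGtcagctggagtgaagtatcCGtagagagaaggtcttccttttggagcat
The same direction was seen over all peaks in protein-coding genes. In the middle 150 bases, the 58459 ESC peaks without a liver peak held 3.64 CG dinucleotides on average and 51.7% G or C. The 49439 liver peaks without an ESC peak held 2.20 and 45.4%. For peaks present in both libraries the numbers were 3.46 (ESC peaks) and 3.01 (liver peaks). Exons were touched by 41.2% of the peaks found in ESCs alone and by 27.9% of those found in liver alone. The peaks found in 1 library were 53.8% of the 108725 ESC peaks in genes and 51.8% of the 95392 liver peaks in genes.

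Gene spans were covered to a similar extent in both libraries, but not at the same genes. The mean coverage of a span was 18.2% in ESCs and 17.4% in liver, and the median was 8.77 and 4.44%. No peak lay in the span of 32.2% of the genes in ESCs and of 42.1% in liver. There were 5964 genes without a peak in either library, 3442 with a peak in ESCs alone, 1246 with a peak in liver alone and 11715 with a peak in both. Across the 22367 genes, which share both libraries and in part overlap each other, Pearson's r of the coverages was 0.52 and Spearman's rho 0.58. A gene was called higher in a library where at least 10 percentage points more of its span were covered. By this size 4861 genes were higher in ESCs (21.7%) and 5053 in liver (22.6%), and these shares are the background against which the groups of genes below are read. They average over unlike genes and include the 5964 without a peak in either library. The share higher in liver was 5.98% among genes with the fewest CpGs around the TSS and 37.2% among those with the most. Gene lists were not matched for CpG number. With every peak cut to 500 bp around its midpoint, 2929 of the 22367 genes were higher in ESCs and 1250 in liver. The count for liver thus depended more on the width of the peaks than that for ESCs. List counts with 500 bp peaks are read against these numbers.

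**Figure D1:**
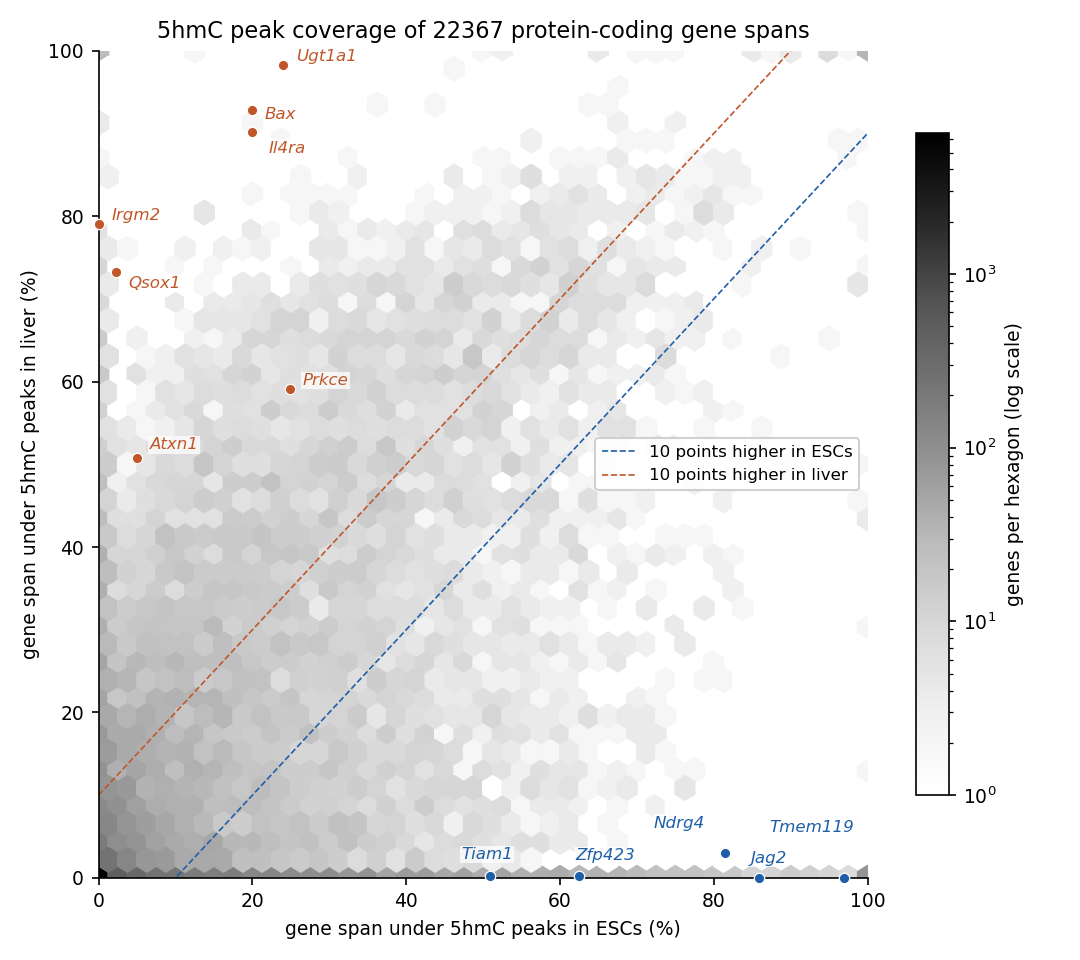
Percentage of each protein-coding gene span under 5hmC peaks in ESCs (x axis) and in liver (y axis), with the number of genes per hexagon on a log scale. The dashed lines mark a difference of 10 percentage points, past which lie 4861 genes on the ESC side and 5053 on the liver side, and the named points are genes described in the text, such as Jag2 at 85.9% in ESCs and 0% in liver.

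Promoters were less alike than spans. At least 25 percentage points more of the promoter were covered in ESCs at 3365 genes (15%), and in liver at 2163 genes (9.67%). A peak touched the promoter of 7139 genes in ESCs (31.9%, 95% exact binomial interval 31.3 to 32.5) and of 6573 in liver (29.4%, 28.8 to 30.0), where the intervals cover counting error alone. Across genes, r of the promoter coverages was 0.31 and rho 0.27. Over all promoters together, 13.4% of the bp were covered in ESCs and 10.1% in liver, a ratio of 1.33. Exons gave 26.5 and 22.2% (ratio 1.19), whereas introns gave 10.3 and 12% (0.861) and the 5 kb past the gene end 15.3 and 17.3% (0.884). Outside protein-coding spans, 3.85% of the genome was covered in ESCs and 2.56% in liver. With peaks of full width, the excess of ESCs thus lay at promoters, in exons and outside protein-coding spans taken as a whole. That of liver lay in introns and past gene ends. At 1 to 5 kb upstream the values were close, with 12.3% in ESCs and 12.7% in liver (0.968). The direction over whole spans turned with peak width, from a ratio of 0.906 to 1.14 with peaks of 500 bp.

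Along the genes the libraries parted at the start. Just upstream of the TSS, at 125 bp, 12.6% of 19074 genes of at least 2 kb were covered in ESCs and 7.08% in liver. Further out, at 1125 bp upstream, the values were 14.7 and 18.3%. Both libraries then climbed towards the end of the gene, to 23.5% in ESCs and 24.0% in liver in the last of 20 equal parts. The 383 liver metabolic and secretory genes were covered more in ESCs just upstream of the TSS and in parts 1 and 2 of the gene. In all later parts they were covered more in liver. In part 1 these genes were covered over 15.6% (ESC) and 6.25% (liver), and in part 2 over 14.8 and 11.2%. In ESCs their coverage was 16.2% just upstream of the TSS, 13.8% in the middle of the gene and 18.1% in its last part. In liver it was 7.17, 28.3 and 39.8%, and 25.7% at 1125 bp upstream. The 717 developmental and neuronal genes were covered over 15.3% (ESC) and 5.39% (liver) just upstream of the TSS, and over 15.8 and 11.6% at 1125 bp past the gene end.

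**Figure D2:**
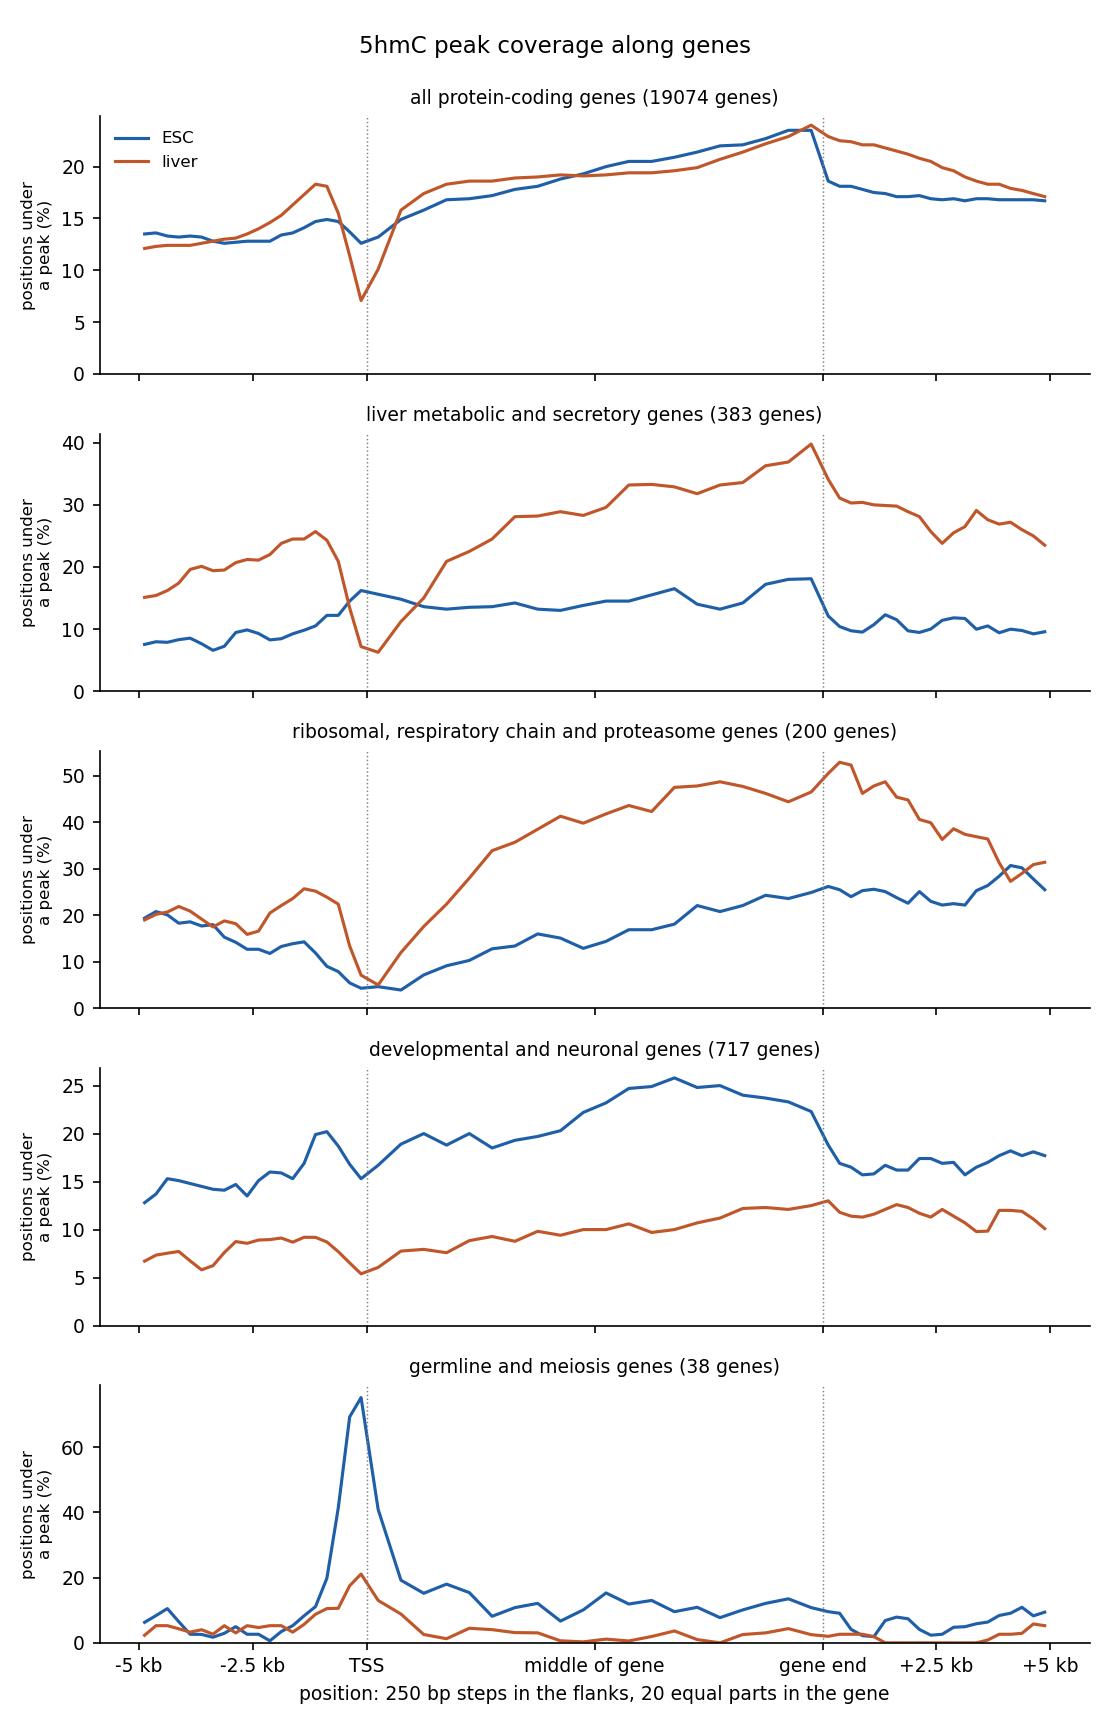
Percentage of genes under a 5hmC peak at each position, in 250 bp steps in the 5 kb flanks and in 20 equal parts within the gene, for ESCs and liver, with a separate y axis per panel. Liver metabolic genes reach 39.8% at their end in liver against 18.1% in ESCs, and germline genes peak at 75.2% just upstream of the TSS in ESCs against 21.1% in liver.

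Among spans of at least 5 kb, the 15 largest differences in favour of ESCs were found at genes of varied function, and 12 of these spans had no liver peak. Tmem119 (chr5:114243738-114250525), a membrane protein of microglia and osteoblasts, was covered over 97.0% in ESCs, 0% in liver and 87.0% in shGFP. Mfap2, a glycoprotein of elastic microfibrils, gave 96.2, 0 and 83.0%, in the same order. Both genes were thus nearly filled in the ESC libraries and empty in liver. Jag2 (chr12:114146801-114167706), a Notch ligand, was under 5 ESC peaks over 85.9% of its 20906 bp, with 0% in liver and 57.7% in shGFP. The next members were of various kinds. Cpne6, a calcium-binding copine of the brain, gave 95.1% in ESCs, 0% in liver and 37.7% in shGFP. Cygb, the oxygen-binding cytoglobin, gave 92.2, 0 and 74.1%. Slc4a3, an anion exchanger of heart and brain, gave 78.7, 0 and 59.9%. All 3 lacked any liver peak in the span. Ndrg4, a cytoplasmic protein of brain and heart on chromosome 8, held 17 ESC peaks and 1 liver peak, with 81.4% in ESCs, 3.06% in liver and 38.0% in shGFP. The others were Dpep3, Mfi2, 1700039E15Rik, Ly6g6f, Fam92b, C530028O21Rik, Upk3b and Susd2, between 77.1 and 91.5% in ESCs, of which Dpep3 (8.90%) and Susd2 (10.3%) had liver coverage. Dpep3 and Fam92b lie on chromosome 8, as Ndrg4 does.

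The 15 largest differences in favour of liver, ESC minus liver, lay between -79.0 and -70.3 points, against 76.9 to 97.0 points on the ESC side, and fewer of these spans were empty in the other library. Irgm2 (chr11:58028530-58036282), an interferon-induced GTPase, had 0% in ESCs, 79.0% in liver and 0% in shGFP. Its promoter did not differ in this way, with 41.9% in ESCs and 38.9% in liver. Fzd5, a Wnt receptor, gave 0% in ESCs, 78.6% in liver and 0% in shGFP, with no peak at its promoter in any of them. Ugt1a1 (chr1:90108534-90115572), which conjugates bilirubin to glucuronic acid, had the highest liver coverage of the 15, 98.3%, against 24.0% in ESCs and 0% in shGFP. Bax, which starts the mitochondrial path of cell death, was covered over 20% in ESCs and 92.8% in liver. Qsox1, which forms disulfide bonds in secreted proteins, held 1 ESC peak and 15 liver peaks, with 2.29 and 73.3%. Il4ra, the interleukin-4 receptor α chain, gave 19.9 and 90.2%. In these 3 genes liver peaks ran through most of the span. Bax held 1 peak in each library and Il4ra 6 ESC and 8 liver peaks, so that the number of peaks differed widely only in Qsox1 of these 3. H47, Zfp740 and 2010107E04Rik had no ESC peak in the span and 73.4 to 76.3% in liver. Further ones, Fut11, D0H4S114, Gm3086, 1810013D10Rik and Gm11016, had 0.746 to 19.3% in ESCs and 76.0 to 91.6% in liver.

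**Figure D3:**
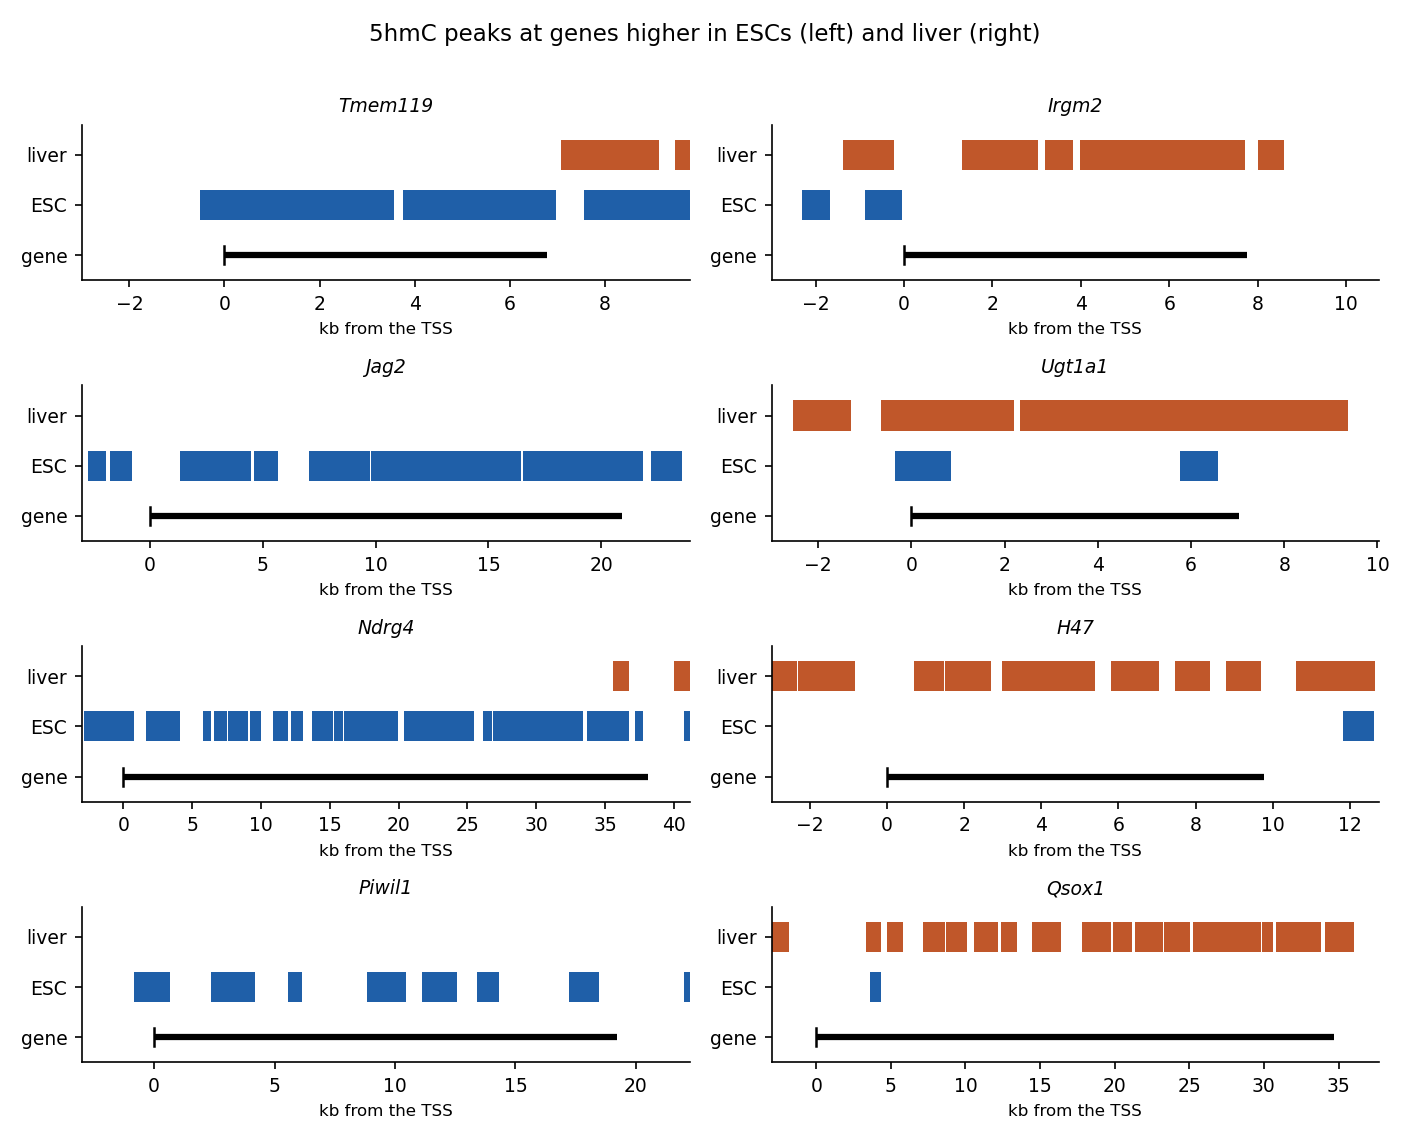
Peaks of ESCs and liver (bars, drawn to scale in kb from the TSS, with 3 kb on each side of the gene) at 4 genes higher in ESCs (left) and 4 higher in liver (right); the black line is the gene span and the tick its TSS. Jag2 holds 5 ESC peaks and no liver peak, and Qsox1 15 liver peaks and 1 ESC peak.

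Very long genes differed over the most bp. Zfp423, a zinc finger factor of neural and adipose development, lies on chromosome 8. It held 123 ESC peaks and 1 liver peak over its 297786 bp, which gave 62.5 and 0.167%. Tiam1, an activator of the Rac GTPase, held 127 and 1, which gave 50.9 and 0.223%. Cdh13, an adhesion receptor also on chromosome 8, held 149 ESC peaks and none in liver, but these covered 13.6% of its span of 1041189 bp. Wwox and Gm20388, also on chromosome 8, gave 31.7 and 53.8% in ESCs and 13.1 and 30.2% in liver. Gm20388 is annotated over 4434882 bp and encloses other genes named here, such as Fam92b and Dpep1. Its values are thus those of a chromosome segment with many peaks in common with other genes. On the other side, Sox5, a factor of cartilage and neural development, was covered over 7.33% in ESCs and 31.4% in liver. Zbtb20, which represses fetal genes in liver, gave 2.32 and 29.6%. Atxn1, mutated in a spinocerebellar ataxia, gave 4.99 and 50.8%, and Adk, adenosine kinase, 7.58 and 50.6%. Prkce, a protein kinase C, gave 24.9 and 59.1%. By length class, 7.34% of the 954 genes over 200 kb were higher in ESCs and 15% in liver, whereas among 3293 genes under 2 kb the shares were 12 and 6.07%.

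Most of the lists of hepatocyte function leaned to liver. Of 54 genes of bile acid, lipid and lipoprotein metabolism, 41 were higher in liver (75.9%, background 22.6%) and 1 in ESCs, with medians of 18.7% in ESCs and 54.1% in liver. Acox2, a peroxisomal oxidase of bile acid synthesis, gave 0% in ESCs and 62.9% in liver. Fads1, a fatty acid desaturase, gave 15.1 and 76.5%. For glucose, amino acid and urea metabolism, 36 of 53 genes were higher in liver and 8 in ESCs, with medians of 18.1 and 45.7%. Hgd and Uroc1, which degrade tyrosine and histidine, gave 5.70 and 0% in ESCs and 61.2 and 51.5% in liver. Upb1, an enzyme of pyrimidine breakdown, gave 14.0 and 67.9%. Of the 43 genes of complement and coagulation, 25 were higher in liver and 3 in ESCs. Plg, the precursor of plasmin, was covered over 3.58 and 64.8%, Hc, complement C5, over 10.5 and 55.9%, and F10, coagulation factor X, over 26.2 and 69.9%.

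Signalling to the liver cell and its clock followed the same direction. Of 35 genes of insulin, growth hormone and glucocorticoid signalling, 27 were higher in liver and 1 in ESCs, with medians of 17.5 and 49.7%. Met, the hepatocyte growth factor receptor, gave 2.06% in ESCs and 52.8% in liver, and Egfr, the receptor of epidermal growth factor, 0.716 and 49.8%. The promoter of Egfr went the other way, with 52.9% in ESCs and 0% in liver. Of the 21 genes of the circadian clock, 15 were higher in liver and 0 in ESCs. The insulin and clock lists had median CpG numbers of 110 and 118, in the class where 37.2% of all genes were higher in liver. Per2, a repressor of the clock, gave 24.7 and 74.6%, and Hlf, a PAR bZIP output factor, 12.2 and 60.7%. Arntl, the activator of the loop, gave 22.9 and 49.0%, and its partner Clock 4.39 and 7.44%, a difference under the size used for calls. Of 34 hepatocyte transcription factors, 19 were higher in liver and 5 in ESCs. Onecut2 gave 3.46 and 53.6%, Nr1h4, the bile acid receptor, 10.2 and 60.2%, and Prox1, needed for hepatocyte migration in the embryo, 14.0 and 63.2%. The 5 that were higher in ESCs, which are named after their values were seen, were Cebpa (35.7 and 0%), Foxa1 (18.8 and 0%), Foxa2 (21.5 and 0%), Foxa3 (40.5 and 26.8%) and Nr0b2 (31.1 and 0%). These factors belong to hepatocytes by function but had less 5hmC coverage in liver than in ESCs. With peaks of 500 bp, 2929 of all 22367 genes were higher in ESCs and 1250 in liver. The counts were then 4 in each direction for the transcription factors. They were 1 in ESCs and 2 in liver for the clock, and 1 and 12 for lipid metabolism. For glucose, amino acid and urea metabolism they were 9 and 11, for complement and coagulation 2 and 11, and for insulin, growth hormone and glucocorticoid signalling 0 and 7.

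Secreted proteins and detoxifying enzymes were less uniform. Among 59 plasma protein genes, 24 were higher in liver and 11 in ESCs, the latter a share of 18.6% and near the background of 21.7%. Itih1 and Itih3, heavy chains of the inter-α-trypsin inhibitors, gave 13.8 and 0% in ESCs and 81.8 and 67.5% in liver, and Hpx, the haem carrier hemopexin, 0 and 65.7%. Several short genes of this kind went the other way. They are named after their values were seen. Apoa1, the main protein of high-density lipoprotein, was covered over 81.8% in ESCs and 0% in liver, Apof over 97.2 and 0%, Apoa5 over 97.4 and 0%, and Hp, haptoglobin, over 58.8 and 0%. Among the metabolic enzymes, Gnmt (77.9 and 0%), Pck1 (39.4 and 0%) and Tat (37.8 and 0%) were of the same kind. Of 83 cytochrome P450 genes, 22 were higher in liver (26.5%, near the background of 22.6%) and 7 in ESCs (8.43%, background 21.7%). No peak lay in 32 of them in either library, and the median was 0% in both. Cyp1a2, which metabolises caffeine and other drugs, gave 30.8 and 73.0%. Of 101 genes of conjugation and other steps of xenobiotic metabolism, 46 were higher in liver and 7 in ESCs. The Ugt1a genes are counted singly there although their spans overlap and share peaks. Ephx2, an epoxide hydrolase, gave 5.13 and 63.6%, and Aox1, an aldehyde oxidase, 6.10 and 63.9%. Reads that map to more than 1 place were left out by the authors, so genes of near-identical families such as these may lack peaks they would otherwise have.

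Genes that all cells use also leaned to liver. The 79 cytosolic ribosomal protein genes had a median coverage of 0% in ESCs and 36.9% in liver, with 57 higher in liver (72.2%) and 3 in ESCs. Rpl18, of the large subunit, gave 0% in ESCs and 61.3% in liver, and Rps10, of the small subunit, 7.94 and 68.9%. Of 89 genes of the mitochondrial respiratory chain, 54 were higher in liver and 6 in ESCs, with medians of 12.1 and 34.2%. Ndufb8, a subunit of complex I, gave 11.2 and 63.9%. Ndufb9, also of complex I, gave 25.9% in ESCs and 89.2% in liver, but with peaks of 500 bp its difference turned to 7.02 points in favour of ESCs. Proteasome and chaperonin genes, 50 in all, were higher in liver at 26 and in ESCs at 3, and Cct8, a chaperonin subunit, gave 11.7 and 75.3%. Along these 3 groups of genes (200 of at least 2 kb), coverage in the last of the 20 parts was 24.9% in ESCs and 46.5% in liver, while in the first part it was 4.66 and 5.03%. The 55 genes of chromatin remodelling and histone lysine enzymes were higher in liver at 25 (45.5%) and in ESCs at 4. Their median CpG number around the TSS was 126, in the class where 37.2% of all genes were higher in liver. Smarca2, an ATPase of the SWI/SNF complex, gave 7.76 and 62.6%, and Chd5, a neural chromatin remodeller, went the other way with 62.0 and 0%. With 500 bp peaks, 1 of these 55 genes was higher in liver and 4 in ESCs, beside 1250 and 2929 of all 22367 genes. With the same peaks the counts in ESCs and liver were 3 and 37 for the ribosomal proteins, 11 and 23 for the respiratory chain, and 5 and 7 for the proteasome and chaperonin genes. Zinc finger genes named Zfp were near the background, with 69 of 371 higher in ESCs (18.6%) and 82 in liver (22.1%), and so were the 42 imprinted genes, with 9 in each direction (21.4%).

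Genes of development and of the nervous system had the reverse pattern. Of 122 homeobox genes outside the Hox clusters, 61 were higher in ESCs (background 21.7%) and 7 in liver, with medians of 14.8 and 0%. Irx4, Dlx3 and Nkx6-3, of heart ventricle, branchial arch and stomach, gave 71.4, 68.3 and 68.2% in ESCs and 0% in liver, and 70.7, 65.2 and 67.8% in shGFP. Of 85 forkhead, Sox, Gata and T-box genes, 32 were higher in ESCs and 18 in liver, the latter a share of 21.2% and near the background. Foxn4, of retina and spinal cord, gave 69.3% in ESCs and 0% in liver, and Gata2, of blood progenitors, 46.9 and 0%. For Wnt, Fgf, Bmp, Notch and Hedgehog signalling the counts were 54 and 27 of 135, and Dll3, a Notch ligand of the somites, gave 53.4 and 0%. Of 37 proneural bHLH and neuronal fate factors, 20 were higher in ESCs and 2 in liver. Atoh8 was 1 of the latter, with 22.1 and 76.1%.

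Ion channel genes gave 80 of 157 higher in ESCs (51%) and 5 in liver. Kcnj4, Kcng4 and Kcnn4, which encode potassium channels, were covered over 74.7, 69.6 and 63.1% in ESCs, and none had a liver peak in the span. Among 101 genes of glutamate, GABA and other transmitter receptors, 37 were higher in ESCs and 2 in liver. Chrna10, Chrng and Chrnd, subunits of nicotinic acetylcholine receptors, gave 72.1, 69.9 and 50.1% in ESCs and 0% in liver. Neuronal adhesion and axon guidance genes were higher in ESCs at 38 of 109 and in liver at 7, and Epha8, an ephrin receptor, gave 64.7 and 0%. The 24 clustered protocadherins, whose spans overlap in part, were higher in ESCs at 21 and in liver at 0, with medians of 31.9 and 0%.

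**Figure D4:**
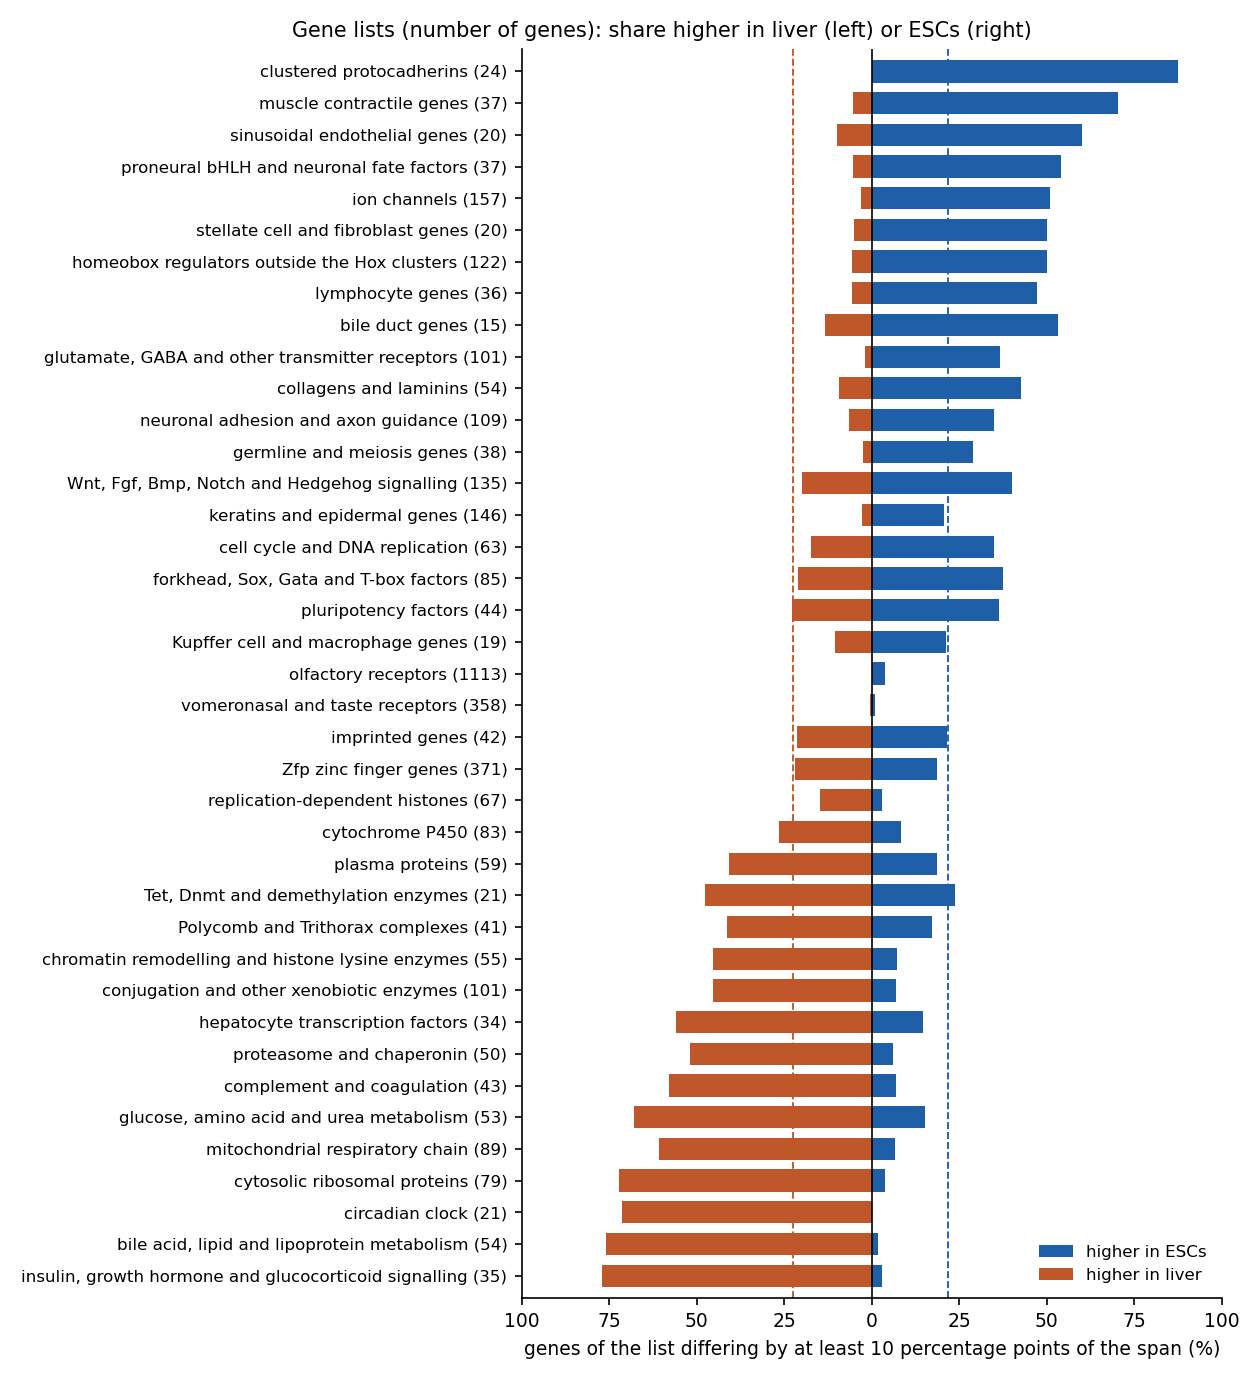
Share of the genes of each of 39 lists (number of genes in brackets) that were at least 10 percentage points higher in ESCs (right, blue) or in liver (left, orange), with the same share over all protein-coding genes as dashed lines at 21.7 and 22.6%. Clustered protocadherins stand at 87.5% on the ESC side and insulin, growth hormone and glucocorticoid signalling at 77.1% on the liver side.

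Genes of cells other than hepatocytes were not higher in the liver tissue as a group. Of 20 sinusoidal endothelial genes, 12 were higher in ESCs and 2 in liver. Lyve1, a hyaluronan receptor, and Oit3, both of that endothelium, were the latter, with 0 and 29.4% in ESCs and 40.2 and 65.0% in liver. Stellate cell and fibroblast genes were higher in ESCs at 10 of 20 and in liver at 1. Thy1, a surface glycoprotein of fibroblasts and neurons, gave 47.4 and 0%, and Des, the muscle and stellate cell filament desmin, 43.6 and 0%. Bile duct genes were higher in ESCs at 8 of 15 and in liver at 2, of which Sox9, a duct cell factor, gave 0 and 40.9%. Kupffer cell and macrophage genes were higher at 4 of 19 in ESCs (21.1%, near the background of 21.7%) and at 2 in liver (10.5%). Fcgr1, an Fc receptor, gave 37.5 and 0%, and Csf1r, the receptor of colony stimulating factor 1, 20.8 and 35.9%. The part that such cells had in the liver values was not tested.

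Muscle and lymphocyte genes, of tissues that neither sample holds as its main cells, were on the ESC side as well. Of 37 muscle contractile genes, 26 were higher in ESCs (70.3%) and 2 in liver. Tnni3, cardiac troponin I, gave 68.9% in ESCs, 0% in liver and 68.2% in shGFP, Myh3, embryonic myosin, 61.5, 6.77 and 31.7%, and Ckm, muscle creatine kinase, 49.7, 0 and 31.2%. Among 36 lymphocyte genes, 17 were higher in ESCs and 2 in liver, and Cd8a, a T cell coreceptor, gave 67.3% in ESCs and 0% in liver. Collagen and laminin genes were higher at 23 of 54 in ESCs and at 5 in liver. Their promoters gave 26 and 0, and the mean promoter coverage was 31.0 and 5.72%. Col11a2, of cartilage, gave 60.7 and 0% of the span. Large receptor families had almost no 5hmC peaks in either library, and unique mapping may leave such families without them. No peak lay in the span of 1068 of 1113 olfactory receptors and of 348 of 358 vomeronasal and taste receptors in either. Of the olfactory receptors, 41 were higher in ESCs (3.68%, background 21.7%) and 1 in liver. Keratins and epidermal genes were empty in both libraries at 99 of 146. Of them 30 were higher in ESCs (20.5%, near the background of 21.7%) and 4 in liver (2.74%).

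Of 44 pluripotency genes, 16 were higher in ESCs and 10 in liver, the latter a share of 22.7% beside a background of 22.6%. With 500 bp peaks, 11 were higher in ESCs and 1 in liver. Over all 22367 genes the calls with these peaks were 2929 and 1250, against 4861 and 5053 with peaks of full width. The dependence of liver calls on peak width was thus not confined to this list. Tcl1, a cofactor of Akt, gave 67.0% in ESCs and 0% in liver, Sall4, a zinc finger partner of Oct4, 45.9 and 0%, and Dnmt3l, the catalytically inactive partner of the de novo methyltransferases, 42.3 and 0%. Esrrb, an orphan receptor of self-renewal, gave 32.2 and 5.05%, with 78.6% of its promoter in ESCs and 0% in liver. Klf2, Mycn and Nr5a2, named after their values were seen, gave 0, 0 and 21.7% in ESCs and 38.0, 38.8 and 59.1% in liver.

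The enzymes that write and remove DNA methylation were split. Tet1, the Tet enzyme most abundant in ESCs, was covered over 27.4% in ESCs and 1.64% in liver, Tet2 over 12.3 and 18.6%, and Tet3 over 27.3 and 65.3%. Only Tet1 and Tet3 of these 3 were past the size used for calls, and they were so in opposite directions. The maintenance methyltransferase Dnmt1 gave 68.4 and 13.9%, and Uhrf1, which brings it to replicated DNA, 65.1 and 12%. The de novo enzymes Dnmt3a and Dnmt3b gave 34.0 and 7.12% in ESCs and 66.3 and 17.3% in liver. Tdg, the glycosylase that takes out oxidised cytosine, gave 19.4 and 23.7%. Over the whole list of 21, 5 were higher in ESCs and 10 in liver. With peaks of 500 bp they were 5 and 1, beside 2929 and 1250 of all 22367 genes. The 41 genes of Polycomb and Trithorax complexes were higher in ESCs at 7 and in liver at 17 (41.5%). Their median CpG number around the TSS was 123, in the class where 37.2% of all genes were higher in liver. Suz12, Ezh2 and Eed, the core of the PRC2 complex, gave 6.18, 1.27 and 13.9% in ESCs and 2.77, 8.47 and 14.6% in liver, all under the size used for calls. The median difference of this list was -6.96 points, in favour of liver, and 0.416 points, in favour of ESCs, with 500 bp peaks. Genes of the cell cycle and DNA replication were higher in ESCs at 22 of 63 and in liver at 11. Plk1, a mitotic kinase, gave 65.9 and 0%, and Mcm3, of the replicative helicase, 62.9 and 0%.

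Germline and meiosis genes differed at more of their promoters than of their spans. Of 38, 11 were higher in ESCs and 1 in liver over the span, but 24 and 3 at the promoter, where the background was 15 and 9.67%. A peak touched 31 of the promoters in ESCs and 11 in liver, and their mean coverage was 56.6% in ESCs, 13.9% in liver and 50.9% in shGFP. These promoters had a median of 59.5 CG dinucleotides in the 2000 bp, near the 61.0 of all genes. Piwil1, which binds piRNAs in the testis, had 76.0% of its promoter covered in ESCs and 0% in liver. Zp1, an egg coat protein, was by its span, with 67.8 and 0%, among the members that differed most, and Dpep3, a testis dipeptidase, gave 91.5 and 8.90%. The following are named after their values were seen. The synaptonemal complex gene Sycp1 had 87.8% of its promoter covered in ESCs, 0% in liver and, over its span, 0.934 and 0%. Ddx4, the germ cell helicase, gave 90.2 and 0% at the promoter and 1.69 and 4.09% over the span, and Stra8, the switch to meiosis, 100% and 0% at the promoter. Some were covered in both libraries. Dazl, an RNA-binding protein of germ cells, gave 73.2% in ESCs and 66.5% in liver at the promoter, and Sycp3 75.3 and 71.3%. The 3 promoters higher in liver were those of Prdm9, Tdrd7 and Tex14, with 0% in ESCs and 46.9, 60.2 and 53.5% in liver.

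At single promoters the difference reached its limit. The whole 2000 bp were covered in ESCs and none of it in liver at 56 genes, and the reverse held at 19. Ranked by the difference in bp of the span, the first in favour of ESCs were Dnahc2, an axonemal dynein, Pkd1l2, a polycystin relative, Speg, a kinase of striated muscle, Cldn14, a claudin of tight junctions, and Pdgfrb, the receptor of platelet-derived growth factor. In shGFP these 5 had 45.0, 46.2, 95, 64.5 and 66.0% of the promoter covered. Gna15, Dpep1, Frem3 and Sec1 followed, with 100% in ESCs, 0% in liver and 52.5 to 100% in shGFP. In favour of liver, the list began with Heatr7b1, Nsd1, a histone H3 lysine methyltransferase, Foxk2, a forkhead factor, and Ugt1a2. Fxyd7, which regulates the sodium pump, Bcat2, which starts the breakdown of branched-chain amino acids, and Tas1r3, of the sweet taste receptor, were among the others. The 10 promoters named for liver had 0% in shGFP.

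The number of CpG dinucleotides around the TSS separated the libraries. Genes were put into 5 classes by the CpG number in the 2000 bp, and a promoter with few CpGs (0 to 19) was covered over 1.79% on average in ESCs and 1.81% in liver. Many receptor genes fall in this class of 4718 genes. The 1113 olfactory receptors had a median of 10 CpGs, and 1070 of their promoters had no peak in either library. What unique mapping adds to these low means was not tested. With 20 to 42 CpGs the means were 26.4 and 12.8%, and 33.7% of these promoters were higher in ESCs against 8.56% in liver. With 43 to 75 they were 20.6 and 14.3%. At 76 to 107 and at 108 to 311 the order turned, with 10.8 and 6.82% in ESCs and 12.6 and 9.17% in liver. Over the span, the share of genes higher in liver went from 5.98% in the class with the fewest CpGs to 37.2% in the class with the most, while that of genes higher in ESCs was 6.34% in the first class, 32.7% in the second and 20% in the last. The excess of ESCs was largest, among the 5 classes, at promoters with 20 to 42 CpGs.

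**Figure D5:**
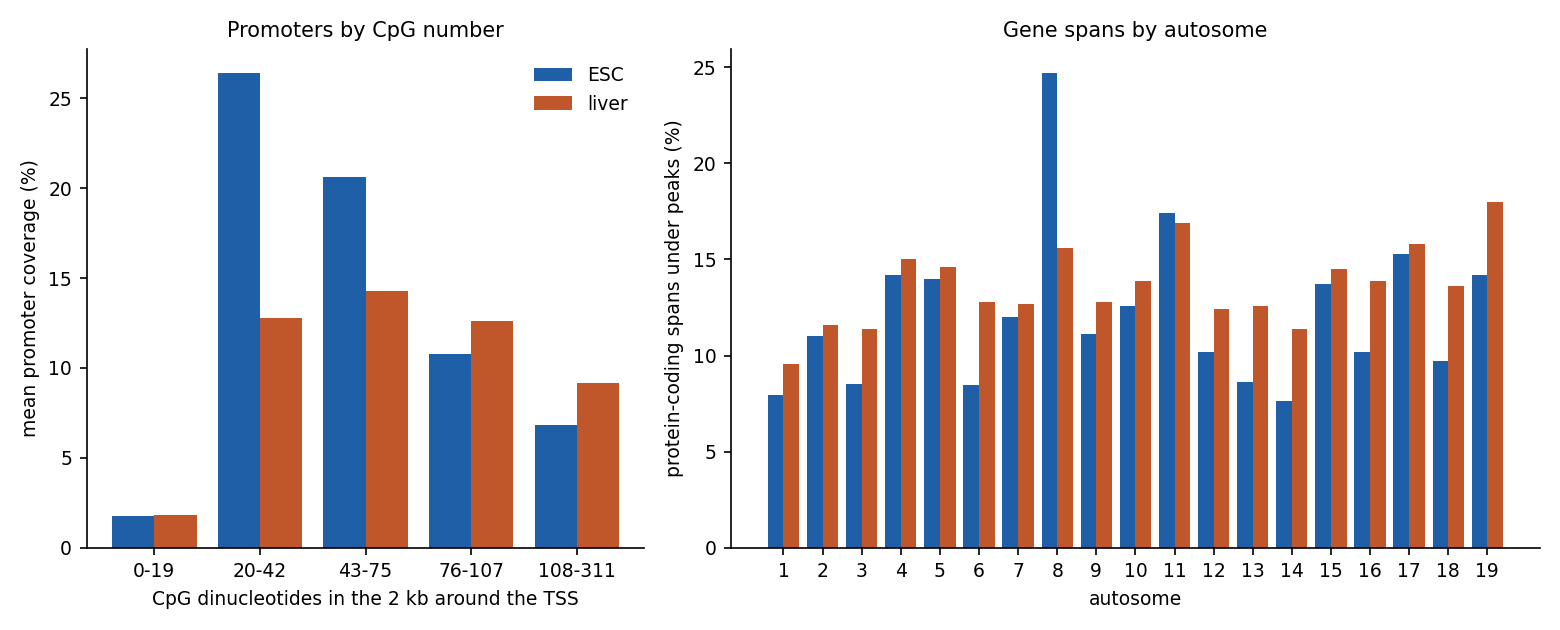
Left, mean percentage of the promoter (TSS ± 1 kb) under peaks in ESCs and liver, by the number of CpG dinucleotides in the same 2 kb; right, percentage of the bp of protein-coding spans under peaks on each autosome. Promoters with 20 to 42 CpGs stand at 26.4% in ESCs and 12.8% in liver, and chromosome 8 is the autosome that stands apart in ESCs, with 24.7% against 15.6% in liver.

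The promoter and the rest of the gene did not always go together. Both were higher in ESCs at 1967 genes and both in liver at 1062. At 348 genes the span was higher in liver and the promoter in ESCs, and at 298 the reverse held. The genes named here were among the 10 of each kind with a span of at least 5 kb and the largest sum of both differences, and were chosen after their values were seen. Slc6a13, a GABA transporter of liver and kidney, was covered over 16.8% of its span in ESCs and 68.5% in liver, but over 88.5 and 10.6% of its promoter. Fmo5, a monooxygenase of liver, gave 2.29 and 53.6% over the span and 65.0 and 0% at the promoter. Hsd17b2, a steroid dehydrogenase, gave 25.8 and 63.7% and 90.3 and 0%. Soat2, which esterifies cholesterol in liver and gut, gave 45.8 and 60.2% and 99.3 and 0%, although with 500 bp peaks its span was higher in ESCs by 7.72 points. In the other direction, Ptk7, a receptor of planar cell polarity, was covered over 62.1% of its span in ESCs and 10.3% in liver and over 0 and 89.2% of its promoter. Src, the tyrosine kinase, gave 62.1 and 14.8% over the span and 0 and 68.2% at the promoter, and Cad, of pyrimidine synthesis, 64.7 and 19.9% and 2.15 and 64.3%.

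Chromosome 8 stood apart. Its spans were covered over 24.7% in ESCs and 15.6% in liver, a ratio of 1.59, while the ratio on the other autosomes was between 0.663 (chromosome 6) and 1.03 (chromosome 11). Of its 1082 genes, 43.2% were higher in ESCs and 14.2% in liver. It held 15212 ESC peaks and 7300 liver peaks. Without it, the ratio over all spans was 0.862 in place of 0.906, the genes of conjugation and other xenobiotic steps, 21 of which lie on it, went from 46 to 36 higher in liver, and the Zfp genes from 69 to 59 higher in ESCs and from 82 to 77 in liver. The cause was not tested. On chromosome X both libraries were nearly empty, with 328 ESC peaks and 104 liver peaks, and 0.369 and 0.195% of its spans covered, so that its 932 genes were hardly measured.

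Runs of neighbouring genes with the same call were found in both directions, and spans within a run can overlap or share peaks. The longest run for liver was of 16 genes over 0.573 Mb of chromosome 1, from Dgkd through the Ugt1a cluster to Spp2. A run of 10 on chromosome 19 held Abcc2, a bile pump for conjugates, Cpn1, a plasma carboxypeptidase, and Cyp2c44. Another run of 10, over 0.0882 Mb of chromosome 4, went from Mrpl20 to Pusl1 and held Dvl1, of Wnt signalling, and Tas1r3. The longest runs for ESCs, of 13 genes over 0.406 Mb (from Osgin1 to Cotl1) and 12 genes over 0.196 Mb (from Ano8 to Unc13a), both lay on chromosome 8.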

How the data were processed

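5hmC was measured by GLIB-Seq in 1 library each of E14 ESCs, of liver from C57BL/6 mice at 8 weeks and of shGFP-transfected E14 cells, whose peaks with a score of at least 80 are given beside single genes. By the methods and the submitters' processing notes, the authors ran CASAVA 1.8 on the images, aligned reads to mm9 with Bowtie 0.12.7, kept those with a unique hit, counted redundant ones once, and used MACS 1.4.1 for the peaks of each library. Unique mapping can leave near-identical paralogs without peaks. The deposited score is the authors' value for each peak in the MACS list, used here only to filter and rank peaks, and the deposited positions give the start and end of each peak. The threshold and control of the peak calls are not given in the sources used here, and with no read counts the depth is unknown.

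Coverage was computed from the positions, counted in bp, over protein-coding spans and over the TSS ± 1 kb of GENCODE M1 on NCBIM37, the same assembly as mm9. Mitochondrial peaks, 1 in ESCs, 1 in liver and 3 in shGFP, were left out. A gene was called higher at a difference of at least 10 percentage points of the span, and a promoter at 25. Shares have exact 95% binomial intervals. The members, the 39 gene lists and the sizes were chosen with earlier results of these data known. Genes were named by rule: the 15 largest differences of spans of at least 5 kb in each direction, skipping overlaps, the 10 largest of promoters, the 5 largest in bp, the 3 largest of each list with a span of at least 5 kb, and cell type markers; other names are said to have been chosen after their values were seen, or are the core members of a family (Tet, Dnmt, PRC2, the clock activators). A few genes that the rule names are not reported here. The alternatives were other score limits, equal numbers of peaks, peaks of 500 bp, scaled coverage, other windows, sizes and gene sets, and leaving out chromosome 8 or the sex chromosomes. The steps were tested on simulated peaks. The scripts ran under Python 3.11.15 with pandas 2.3.3, numpy 2.4.6 and scipy 1.17.1, and the plots were drawn with matplotlib 3.10.9.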

Additional observations from a re-analysis of the deposited data

How the results depend on the processing

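With 1 library a side no replicate could be left out, and the percentages of single genes carry no error. No paired analysis was possible because there is a single ESC and a single liver library and no test was made. Most reversals came with peaks cut to the same width, and the cause of the width was not tested. Depth is unknown, so an uncovered gene may hold 5hmC below the threshold. A count was held the same within a factor of 1.5, a share within its interval, and a ratio only if its printed value was unchanged. Of 87 values of counts, ratios and shares under an alternative, 38 stayed the same by these rules. Of 280 list medians, 263 kept their direction and stayed within a 95% interval of the median. Of 2310 differences of named genes, 1841 moved by less than 10 points. Of 385 differences of named promoters, 310 moved by less than 25 points.

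With peaks of 500 bp around their midpoint, 2929 spans were higher in ESCs and 1250 in liver, 1005 promoters were higher in liver, the ratios were 1.14 over spans, which reversed, and 1.52 over promoters, and 26.5% (ESCs) and 20.6% (liver) of promoters had a peak. The median of the Polycomb and Trithorax list reversed to 0.416 points, and single differences reversed to 10.2 (Glul), 10.2 (Per1), 21.0 (Phf1), 8.10 (Lifr), 7.82 (Haao), 7.72 (Soat2), 7.61 (Csnk1d), 7.13 (Mbd3), 7.02 (Ndufb9), 6.36 (Serpinf2), 5.94 (Setd1b), 4.95 (Ass1), 3.66 (Pbld1), 3.60 (Asl), 3.58 (Prodh), 3.30 (Kdm6b), 2.80 (Hnf4a), 2.76 (Stat3), 1.73 (Serpinf1), 0.908 (Pcgf2) and 0.170 (Il6st) in favour of ESCs, and to -6.21 (Pold1) and -19.3 (Lcat) in favour of liver. With only the higher-scoring 50% of the peaks in each library, Bcat2 reversed to 1.68 and Cpsf4l to -3.95, the ratios were 0.874 and 1.49, and 21.1% and 18.4% of promoters had a peak. Equal numbers of peaks gave ratios of 0.781 and 1.17 and 27.4% of promoters in ESCs. A score of at least 100 gave 0.908 and 1.38, and 29.0 and 25.9%. Coverage scaled to the same total gave 0.858 and 1.26. Without chromosome 8 the ratios were 0.862 and 1.29 and the ESC share 30.8%; without X and Y they were 0.905 and 1.32, and the shares 33.1 and 30.7%. All annotated genes gave 5175 promoters higher in ESCs and 3365 in liver, ratios of 0.916 and 1.31 and shares of 29.0 and 25%. Genes that overlap no other gave a span ratio of 0.913, genes of at least 5 kb 0.901, and gene bodies beyond 1 kb 0.896. A difference of 20 points left 3063 spans in ESCs and 2986 in liver, and 50 points 1433 and 441 promoters. Promoters of 500 bp on each side gave a ratio of 1.74, 1313 higher in liver, and shares of 22.4 and 17.3%, those of 2 kb 1.07, 44.9 and 41.4%, and at least 500 bp covered 22.8 and 17.9%.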
